A study of Mus musculus with 22 samples.

Results

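Subunits of the acid-secreting proton pump and the proteases that work in acid were followed in mouse teeth, in RNA of the whole lower first molar on postnatal day 5 (P5) and day 11 (P11). They were taken as all rows of the deposited normalised expression table whose symbols begin with Atp6v0, Atp6v1 or Atp6ap, together with the lettered cathepsins other than Ctsk. This rule found 37 genes of 28711 rows, namely 24 vacuolar ATPase genes (1 of them the pseudogene Atp6v0c-ps2) and 13 cathepsins. A filter on low counts left 35 of the 37 among 21510 genes tested. Atp6ap1l had at most 11 counts in any library and Ctsg at most 24, and neither was tested.

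The vacuolar ATPase (V-ATPase) is a proton pump with a cytoplasmic V1 sector, which hydrolyses ATP, and a membrane V0 sector, through which protons pass into lysosomes, endosomes and secretory vesicles or across the plasma membrane. In bone, osteoclasts carry it on their ruffled border and dissolve mineral with it. In teeth, maturation-stage ameloblasts also have a ruffled border, take up degraded enamel proteins and regulate pH at the enamel surface. Cathepsins are proteases, mostly of lysosomes, that work best in the acid the pump provides. They divide by catalytic residue into cysteine, aspartic and serine enzymes, and cystatins inhibit the cysteine members.

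The mice carried 1 copy of Tgfbr2 with the G357W substitution (Het), a model of Loeys-Dietz syndrome in which a glycine of the TGF-beta type II receptor is replaced by tryptophan, or were wild-type littermates (WT). The change is in the germline and so in every cell of the tooth, and gene counts do not check it. There were 6 libraries of each genotype at P5 and 5 of each at P11, named here by group and replicate (P5 WT 1, P11 Het 5). P5 lies in the secretory stage of enamel formation of this tooth and P11 in the maturation stage. By the submitters' account 5 mutant and 8 wild-type mice were used. On that count some of the 22 libraries must share an animal, and which ones is not given in the labels. The p-values weigh a difference against the spread between libraries taken as independent, and may then be too small.

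Library totals ranged from 32903949 to 45343744 counts. Markers of dental epithelium were abundant in each group. The 4 secretory ameloblast markers together took 122000 to 168000 CPM (counts relative to the TMM-scaled library size) at P5 and 17300 to 44700 at P11, while 5 maturation markers took 810 to 2460 at P5 and 59200 to 83400 at P11. P5 Het 6 is a P5 library by its title and a P11 library by 2 other label fields. Its Atp6v1a level of 81.1 CPM lay among the other P5 Het libraries (74.5 to 82.3) and below every P11 library (250 to 346). Markers of oral mucosa were raised in P11 WT 4, P11 WT 5 and P11 Het 2, whose sums over 6 keratinocyte genes were 1350, 612 and 822 CPM against 67.3 to 219 in the other P11 libraries. P5 Het 4 had 16.2 CPM of these markers against at most 2.92 in the other P5 libraries, and P5 Het 5 had 54.8 CPM of muscle markers against at most 10.3 in the other P5 libraries. Every P11 library held more of the oral mucosa markers than any P5 library, and all 6 genes were higher at P11 in both genotypes. Leaving out the libraries with raised markers does not remove this difference between ages. Library names hold a number ahead of a hyphen, 3 to 5 at P5 and 1 or 2 at P11, whose meaning is not given. Because this number never spans both ages, it and age cannot be told apart. P11 WT 4 and P11 WT 5 are the only P11 WT libraries numbered 2. Leaving them out for their oral mucosa markers also takes that number out of P11 WT.

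Promoter sequence was examined because many of these genes are known targets of the TFEB family, factors that bind E-box elements in lysosomal gene promoters. RefSeq promoters (GRCm38.p6, 250 bases before to 50 after each start) were found for 25 of the 37 genes, with 29 promoters in all. The E-box CACGTG, which reads the same on both strands, was present in 8 of 29 promoters (27.6%), against 2349 of 32851 promoters of all genes (7.15%). It stood in 4 of 10 cathepsin promoters and in 4 of 19 V-ATPase promoters. Among promoters of genes that were higher at P11 in both genotypes it was found in 7 of 17, and among those of the remaining genes in 1 of 12. The remaining genes include Ctsg, which was not tested with age, and scarce genes such as Atp6v1b1, Atp6v1c2 and Atp6v0a4. These sets of promoters thus differ in expression level as well, and the difference in share was not tested. The E-box directly preceded by GT and followed by AC, the longer CLEAR element, was in 0 of 29 promoters and in 107 of all promoters (0.326%). These matches describe the letters of the window and were not tested as binding sites.

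The 250 bases before the start are shown for 2 pump subunits and 2 cathepsins that hold the E-box and were higher at P11 in both genotypes. Each is written on its gene's strand, 5′ to 3′, with CACGTG in capitals. Positions give the first base of the first copy, counted back from the start.
Atp6v0b (chr4:117887330-117887579, minus strand, first copy at -36): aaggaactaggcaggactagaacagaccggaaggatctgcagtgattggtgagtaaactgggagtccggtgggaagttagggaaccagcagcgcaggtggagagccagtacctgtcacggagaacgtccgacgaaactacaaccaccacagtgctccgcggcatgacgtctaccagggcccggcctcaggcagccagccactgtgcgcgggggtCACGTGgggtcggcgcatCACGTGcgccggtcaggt
Atp6v1a (chr16:44139260-44139509, minus strand, copy at -131): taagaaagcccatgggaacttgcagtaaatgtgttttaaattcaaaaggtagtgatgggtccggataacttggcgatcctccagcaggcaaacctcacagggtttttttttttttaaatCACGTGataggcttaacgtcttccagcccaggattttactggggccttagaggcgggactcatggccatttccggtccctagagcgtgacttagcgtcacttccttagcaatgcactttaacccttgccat
Ctsd (chr7:142387828-142388077, minus strand, first copy at -245): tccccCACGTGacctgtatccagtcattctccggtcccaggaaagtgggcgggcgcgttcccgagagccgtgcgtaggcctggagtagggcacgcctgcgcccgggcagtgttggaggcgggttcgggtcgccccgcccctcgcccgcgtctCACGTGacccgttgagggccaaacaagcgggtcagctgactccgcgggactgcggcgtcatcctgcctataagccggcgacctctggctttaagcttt
Ctsf (chr19:4854915-4855164, plus strand, copy at -79): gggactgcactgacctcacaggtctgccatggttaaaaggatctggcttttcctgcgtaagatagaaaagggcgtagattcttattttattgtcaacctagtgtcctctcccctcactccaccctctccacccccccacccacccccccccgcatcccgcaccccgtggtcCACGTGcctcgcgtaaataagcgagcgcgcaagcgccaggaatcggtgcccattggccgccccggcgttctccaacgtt
Atp6v0b and Ctsd hold 2 copies each, those of Atp6v0b close together just before the start and those of Ctsd far apart. Atp6v0d1, Atp6v0e and Ctsl have a promoter with 1 copy, and Ctsa has one with 2 copies, on either side of the start. Of these, Ctsa was not called between ages.

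The first comparison asked how the pump and the proteases differed between P5 and P11. Most members were higher at P11: 25 of 35 in WT and 24 of 35 in Het passed the test upwards, and 4 and 2 passed it downwards (edgeR quasi-likelihood test, with p-values adjusted by Benjamini and Hochberg's method and a threshold of 0.05). Among all genes tested, 24.8% were higher and 24.7% lower in WT, and 24.4% were higher and 23.4% lower in Het. The median log2 fold change of the members was 0.40 in WT and 0.50 in Het, against -0.01 over all genes in either genotype. The calls matched across genotypes for 23 genes that were higher and 2 that were lower in both. Another 4 genes were called in WT only and 1 in Het only, 5 were called in neither, and 0 were called in opposite directions. The highest P5 library lay below the lowest P11 library for 23 members in WT and 22 in Het (16.6% and 15.9% of all genes), and the reverse held for 3 in WT and 1 in Het (15.5% and 14.4% of all genes). In RNA of a whole tooth, a change in the number of cells of a type and a change in RNA per cell cannot be told apart.

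**Figure D1:**
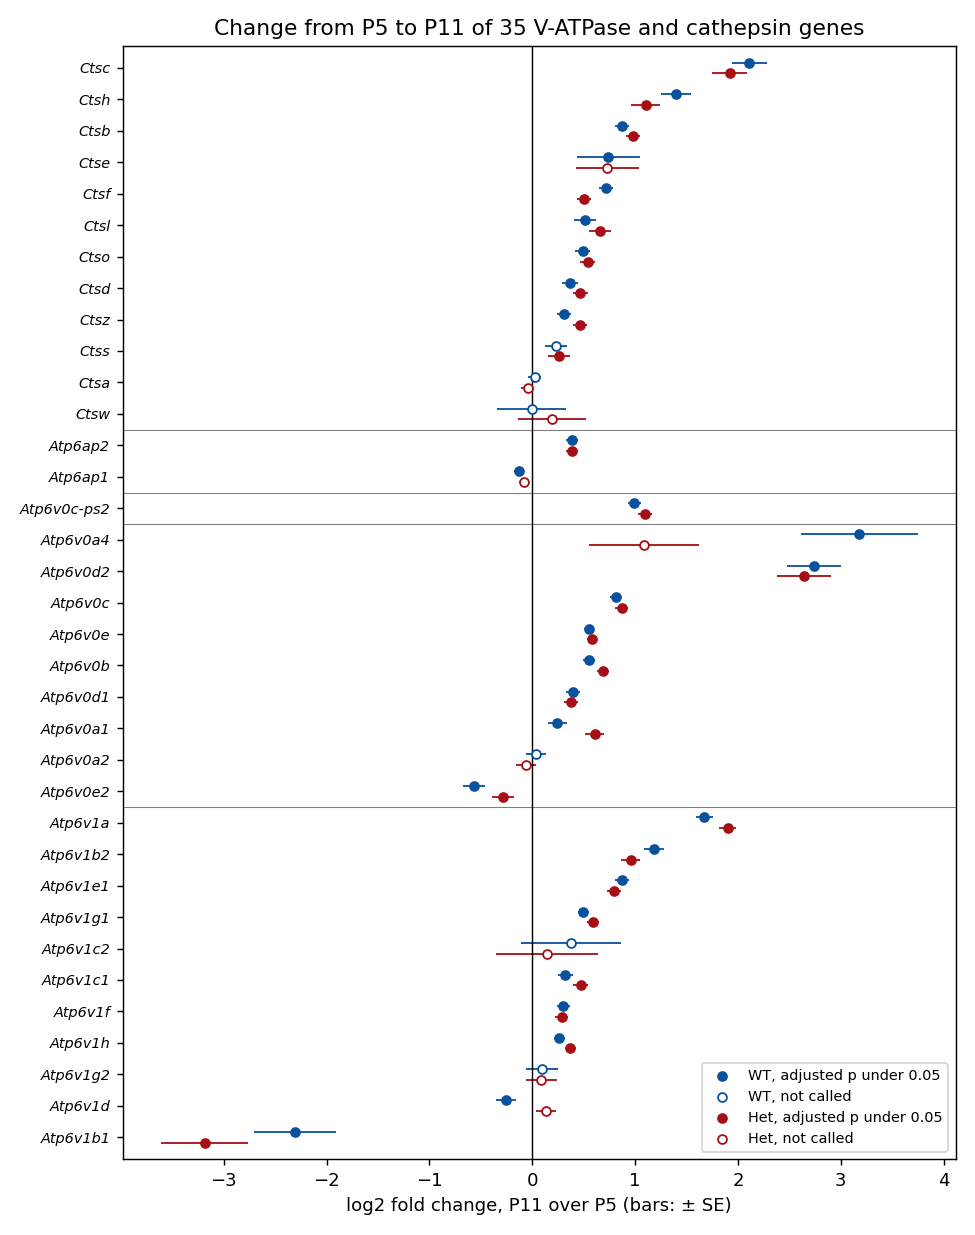
Log2 fold change from P5 to P11 for the 35 tested genes, by group from cathepsins at the top to V1 subunits at the bottom. Points are edgeR estimates, bars are ± SE, and filled points passed the adjusted threshold. WT and Het estimates lie close together for most genes, and Atp6v0a4 has the widest gap, at 3.18 in WT and 1.08 in Het.

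In the V1 sector, 7 of 11 tested subunits were higher at P11 in either genotype, while 2 were lower in WT and 1 in Het. Atp6v1a (chromosome 16, 44085402 to 44139705, minus strand, GRCm38) encodes the catalytic A subunit. Its CPM ran from 91.3 to 108 in P5 WT, with a median of 97.0, and was 335, 328, 346, 262 and 293 in P11 WT. In Het it ran from 74.5 to 82.3 at P5, with a median of 79.7, and was 342, 281, 320, 281 and 250 at P11. No P5 library reached a P11 library. The log2 fold change was 1.67 ± 0.08 (SE; adjusted p = 2.41e-14) in WT and 1.90 ± 0.08 (3.58e-15) in Het, the largest rise among the V1 subunits in either genotype.

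The B subunit shares the nucleotide sites of the A subunit and comes as B1, found in acid-secreting epithelia such as kidney intercalated cells, or B2, which most cells use. Atp6v1b2 had a median of 182.9 CPM in P5 WT, between 168 and 192, and stood at 408, 434, 460, 349 and 395 in P11 WT. Its log2 fold change was 1.18 ± 0.09 in WT (adjusted p = 2.51e-10) and 0.96 ± 0.09 in Het (1.05e-08). Atp6v1b1 moved the other way. Its CPM ran from 0.812 to 2.02 in P5 WT, with a median of 1.37, and was 0.438, 0.433, 0.295, 0.048 and 0.203 in P11 WT. In Het the P5 range was 0.748 to 2.08 and the P11 values were 0.116, 0.305, 0.0481, 0.118 and 0.185. The groups did not overlap, and Atp6v1b1 had log2 fold changes of -2.31 ± 0.40 in WT (adjusted p = 3.76e-05) and -3.19 ± 0.43 in Het (1.26e-06). These rest on few reads, 26 to 81 per library at P5 and 2 to 17 at P11.

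Levels per kilobase of exon allow the paralogues to be set side by side. On this scale B1 was 0.929% ± 0.240 (SD, n = 6) of the summed B subunit counts in P5 WT and 0.0814% ± 0.0460 (n = 5) in P11 WT. The C subunit, which joins the sectors, was 98.6% Atp6v1c1 in P5 WT. Atp6v1c1 was higher at P11, by 0.32 ± 0.07 in WT (adjusted p = 0.000716) and 0.47 ± 0.07 in Het (9.34e-06). Atp6v1c2, its epithelial paralogue, was called in neither genotype, with log2 differences of 0.38 ± 0.49 in WT (adjusted p = 0.553) and 0.14 ± 0.50 in Het (0.835). Its P11 values of 2.62 and 1.55 CPM in P11 WT 4 and 5 and 2.05 in P11 Het 2, against 0.221 to 0.673 in the other P11 libraries, coincided with the 3 libraries rich in oral mucosa markers. Without the 5 libraries that had raised muscle or oral mucosa markers, the WT value turned to -0.94 (adjusted p = 0.0473).

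The stalk and regulatory V1 subunits moved less. Atp6v1e1, part of the peripheral stalk, ran from 81.5 to 96.6 CPM in P5 WT and was 149, 156, 155, 172 and 178 in P11 WT, a log2 fold change of 0.87 ± 0.07 (adjusted p = 1.73e-10). Its Het change was 0.80 ± 0.07 (9.55e-10). Atp6v1g1 (0.50 ± 0.06 in WT and 0.59 ± 0.06 in Het), Atp6v1f (0.30 ± 0.06 and 0.29 ± 0.06) and Atp6v1h (0.26 ± 0.05 and 0.37 ± 0.05) were also higher, with adjusted p between 7.51e-08 and 0.000333 in WT and between 5.06e-09 and 0.000607 in Het. Atp6v1g2, a paralogue of the G subunit known from neurons, took 0.742% of the G subunit share in P5 WT and was called in neither genotype. Atp6v1d of the central stalk was the remaining V1 gene that was lower in WT, by -0.25 ± 0.10 (adjusted p = 0.0295), with overlapping groups of 210 to 278 CPM at P5 and 200 to 219 at P11. In Het its value was 0.14 ± 0.09 (0.251), and the WT call was lost without P5 WT 1, 5 or 6, without P11 WT 2 or 3, with the replicate number as a block (-0.24, adjusted p = 0.0601) and without the 5 libraries (-0.28, 0.0609), while these estimates stayed between -0.28 and -0.20.

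**Figure D2:**
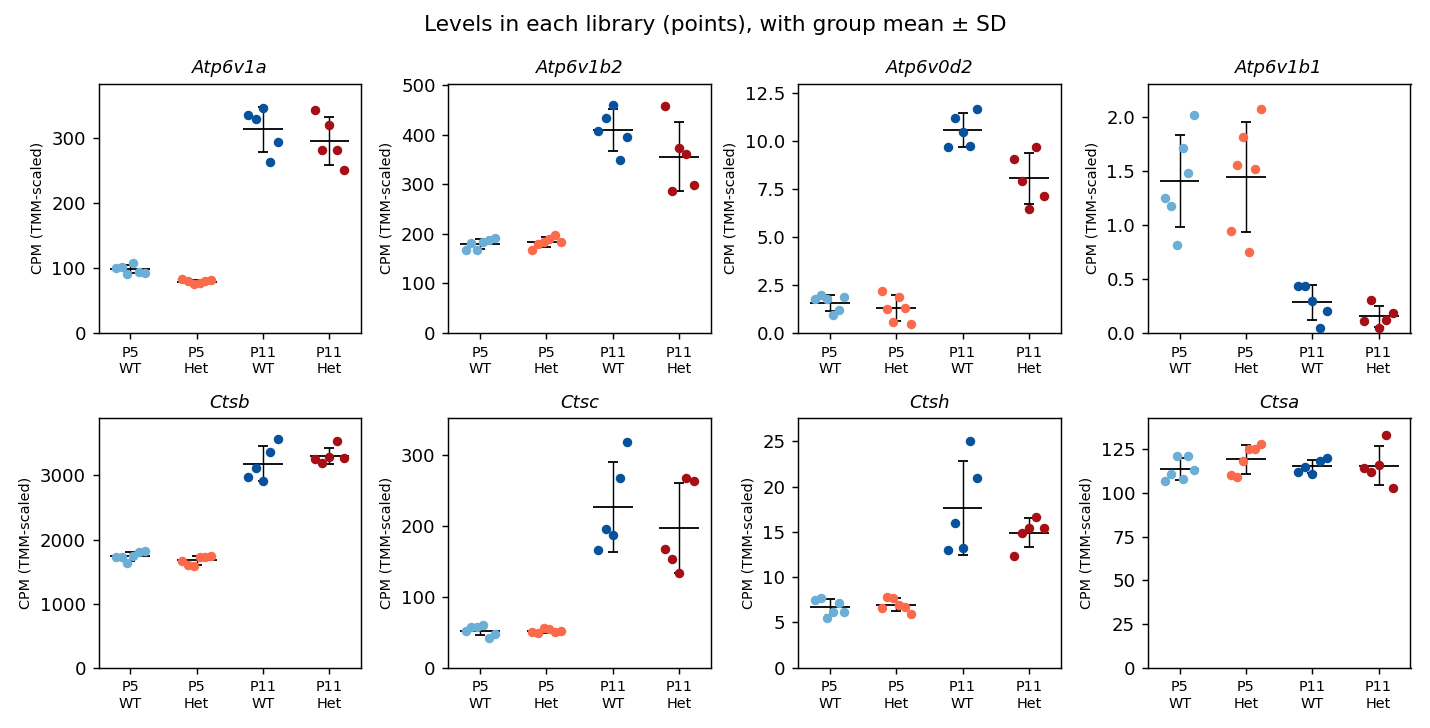
CPM of 8 members in each library (points), with the group mean ± SD (bars), for 6, 6, 5 and 5 libraries. Atp6v1a, Atp6v1b2, Atp6v0d2, Ctsb, Ctsc and Ctsh lie higher at P11, Atp6v1b1 lies lower, and Ctsa stays between 103 and 133 CPM in every library.

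In the V0 sector, 7 of 9 tested subunits were higher in WT and 6 in Het, and 1 was lower in each. Atp6v0d2 had one of the steepest rises of the module. It lies on chromosome 4 (19876841 to 19922605, minus strand) and encodes the d subunit isoform that is abundant in osteoclasts and takes part in their fusion, while Atp6v0d1 is the widely expressed form. Atp6v0d2 ran from 0.928 to 1.99 CPM in P5 WT, with a median of 1.75, and was 9.72, 11.2, 10.5, 9.74 and 11.7 in P11 WT. In Het the P5 range was 0.488 to 2.20 and the P11 values were 9.06, 7.92, 6.47, 9.72 and 7.14. The change was 2.74 ± 0.26 in WT (adjusted p = 5.18e-09) and 2.64 ± 0.26 in Het (1.33e-08), and 2.73 and 2.83 without the 5 libraries. Atp6v0d1 changed by 0.40 ± 0.07 in WT (2.03e-05) and 0.38 ± 0.07 in Het (3.96e-05). Per kilobase, Atp6v0d2 made up 0.949% ± 0.273 (SD, n = 6) of d subunit counts in P5 WT and 4.61% ± 0.382 (n = 5) in P11 WT, and 0.784% ± 0.391 and 3.70% ± 0.586 in Het. The d2 share did not overlap between ages in either genotype.

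Osteoclast markers moved with Atp6v0d2. Of the 11 on the list, 10 were tested and 9 were higher at P11 in each genotype, with no marker lower. Acp5, the tartrate-resistant phosphatase of osteoclasts, changed by 3.34 ± 0.21 in WT and 3.16 ± 0.21 in Het, and Ctsk, the collagenase of the resorption pit, by 2.47 ± 0.14 and 2.35 ± 0.14. The summed list ran from 66.0 to 93.8 CPM in P5 WT, 57.4 to 97.7 in P5 Het, 388 to 499 in P11 WT and 307 to 460 in P11 Het. Macrophage markers, which share a lineage with osteoclasts, summed to 224 to 245 CPM in P5 WT and 178 to 241 in P11 WT, with 2 of 12 higher and 6 lower in WT and 2 and 3 in Het. No osteoclast or macrophage marker was at 0 throughout a group. The part of osteoclast content in the age differences was not tested.

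The a subunit anchors the proton path and sets where the pump goes. Its isoforms are a1 (Atp6v0a1), a2 (Atp6v0a2), the osteoclast form a3 (Tcirg1, outside the symbol rule) and a4 (Atp6v0a4), known from kidney and inner ear. Atp6v0a1 (chromosome 11, 101009452 to 101063719, plus strand) ran from 242 to 308 CPM in P5 WT and was 318, 322, 360, 284 and 334 in P11 WT. The groups overlapped, with a change of 0.25 ± 0.09 (adjusted p = 0.0315), and the call was lost without P11 WT 3 (adjusted p = 0.0912) or P11 WT 5 (0.0611) and with upper-quartile scaling (0.0688). In Het the groups of 166 to 241 and 286 to 373 CPM did not overlap, and the change was 0.61 ± 0.09 (7.90e-06). Atp6v0a2 was called in neither genotype (0.04 ± 0.10 and -0.06 ± 0.10), and Tcirg1 rose by 0.35 ± 0.07 in WT (0.000352) and 0.29 ± 0.07 in Het (0.00184). Per kilobase, a1 made up 67.0% of the 4 isoforms in P5 WT and 67.0% in P11 WT, a2 18.7% and 16.1%, a3 14.2% and 15.3%, and a4 0.208% and 1.63%. In Het, a1 made up 61.0% at P5 and 68.8% at P11, a2 22.7% and 16.1%, a3 15.8% and 14.3%, and a4 0.492% and 0.787%.

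**Figure D3:**
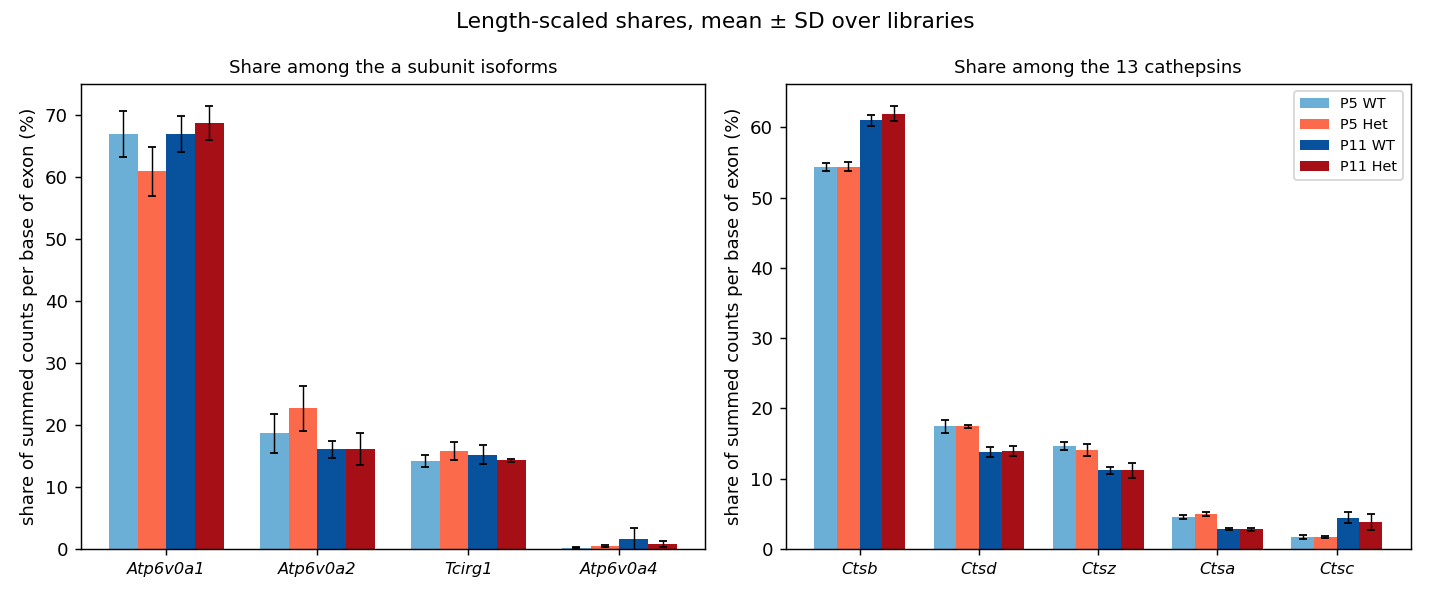
Shares of summed counts per base of exon among the a subunit isoforms (left) and for the 5 cathepsins shown of 13 (right). Bars are means ± SD over 6, 6, 5 and 5 libraries. Atp6v0a1 is the largest of the a isoforms in all groups, and Ctsb makes up 54.4% of cathepsin counts in P5 WT and 61.0% in P11 WT.

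Atp6v0a4 was scarce and uneven. Its CPM ran from 0.337 to 1.07 in P5 WT, with a median of 0.562, and was 1.75, 1.71, 1.21, 14.1 and 10.5 in P11 WT. In Het the P5 range was 0.840 to 1.75, and the P11 values were 0.837, 4.25, 1.42, 4.16 and 3.41. The 2 highest libraries, P11 WT 4 and P11 WT 5, and the highest Het library, P11 Het 2, were those with raised oral mucosa markers. P11 Het 4 and P11 Het 5 were close to P11 Het 2, at 4.16 and 3.41 against 4.25 CPM. Their oral mucosa markers summed to 106 and 219 CPM, against 822 in P11 Het 2. The WT change of 3.18 ± 0.57 (adjusted p = 5.43e-05) was 1.27 (0.0207) without the 5 libraries, 2.55 without P11 WT 4 and 2.87 without P11 WT 5. The Het change of 1.08 ± 0.53 was not called (0.0992), and it was called without P11 Het 1 (1.32, 0.0469). The part of oral mucosa in these values was not tested.

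Of the remaining V0 genes, which build the proteolipid ring and its small partners, Atp6v0c, Atp6v0b and Atp6v0e were higher in both genotypes and Atp6v0e2 was lower. Atp6v0c, the main ring proteolipid, changed by 0.81 ± 0.06 in WT (adjusted p = 1.30e-10) and 0.87 ± 0.06 in Het (4.43e-11). The pseudogene Atp6v0c-ps2 is near-identical to it and followed it at 0.99 ± 0.06 and 1.10 ± 0.06, so reads of the pair may have been split between them by the authors' counting and both values are uncertain. Atp6v0b changed by 0.55 ± 0.06 and 0.69 ± 0.06, and Atp6v0e by 0.55 ± 0.05 and 0.58 ± 0.05. Atp6v0e2, a paralogue of Atp6v0e, ran from 8.63 to 9.60 CPM in P5 WT and was 6.83, 5.55, 6.47, 5.81 and 6.14 in P11 WT, a change of -0.57 ± 0.11 (9.22e-05). In Het it changed by -0.28 ± 0.11 (0.0306), with overlapping groups. The Het call was lost without P5 Het 2, 3 or 5, without P11 Het 2 or 5, and without the 5 libraries (-0.26, 0.119). Its share of e subunit counts per kilobase was 6.90% ± 0.261 in P5 WT and 3.31% ± 0.448 in P11 WT.

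Among the accessory proteins, Atp6ap2, the prorenin receptor, which takes part in pump assembly, was higher at P11 by 0.39 ± 0.06 in WT (adjusted p = 4.90e-06) and 0.38 ± 0.06 in Het (5.68e-06). Atp6ap1, another assembly and targeting factor, was lower by -0.13 ± 0.05 in WT (0.0359), without overlap, and -0.08 ± 0.05 in Het (0.214). The WT call did not hold in 15 of the alternatives, among them the removal of any 1 P5 WT library (adjusted p 0.0801 to 0.125).

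Of the 12 tested cathepsins, 9 were higher in WT, 9 in Het and 0 lower in either. Ctsb (chromosome 14, 63122462 to 63145923, plus strand), a cysteine cathepsin with both endopeptidase and dipeptidase action, was the most abundant member per kilobase in every group. It ran from 1634 to 1822 CPM in P5 WT, with a median of 1734, and was 2980, 3110, 2910, 3360 and 3570 in P11 WT. In Het it ran from 1581 to 1750 at P5 and was 3250, 3200, 3280, 3530 and 3270 at P11. Its change was 0.87 ± 0.07 in WT (adjusted p = 7.72e-11) and 0.98 ± 0.07 in Het (1.08e-11). Ctsb took 54.4% ± 0.522 (SD, n = 6) of cathepsin counts per kilobase in P5 WT and 61.0% ± 0.791 (n = 5) in P11 WT, while the shares of Ctsd (17.5% to 13.8%) and Ctsz (14.7% to 11.2%) were smaller at P11. Ctsd and Ctsz nevertheless had higher levels at P11, with changes of 0.37 ± 0.08 and 0.31 ± 0.07 in WT.

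Ctsc (chromosome 7, 88278085 to 88310888, plus strand), or dipeptidyl peptidase I, activates serine proteases of granulocytes and mast cells, and its loss in humans causes severe periodontal disease. It ran from 41.7 to 59.9 CPM in P5 WT, with a median of 54.4, and was 166, 196, 187, 268 and 318 in P11 WT. In Het it ran from 48.7 to 56.2 at P5 and was 168, 154, 133, 267 and 263 at P11. The change was 2.11 ± 0.17 in WT (adjusted p = 3.62e-10) and 1.92 ± 0.17 in Het (1.97e-09). Ctsh, an aminopeptidase, ran from 5.53 to 7.69 CPM in P5 WT and was 13, 16, 13.2, 25 and 21 in P11 WT. Its change was 1.40 ± 0.14 in WT (1.78e-08) and 1.10 ± 0.14 in Het (7.99e-07). Neither gene had overlapping ages in either genotype. Mast cell markers moved with both genes: all 4 of 5 listed markers that could be tested were higher at P11 in either genotype, among them Cpa3 (1.93 ± 0.40 in WT and 1.65 ± 0.38 in Het) and Mcpt4 (1.71 ± 0.50 and 2.96 ± 0.53). The whole list of 5, of which Mcpt1 was at 0 throughout P5 Het, summed to 4.49 to 6.16 CPM in P5 WT, 2.67 to 6.30 in P5 Het, 8.83 to 16 in P11 WT and 12.2 to 23 in P11 Het. Of the 7 neutrophil markers, 0 were called with age. A rise was not particular to mast cells. All 5 maturation ameloblast markers, every oral keratinocyte marker and 9 of 10 tested osteoclast markers were also higher at P11 in either genotype. Macrophage markers were higher for 2 of 12 and secretory ameloblast markers for 0 of 4. The part of these cells in the Ctsc and Ctsh values was not tested.

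Ctsf, Ctsl and Ctso, further cysteine cathepsins, changed by 0.72 ± 0.07, 0.52 ± 0.11 and 0.49 ± 0.07 in WT and by 0.50 ± 0.07, 0.66 ± 0.11 and 0.54 ± 0.07 in Het, all passing the test. Ctss, typical of antigen-presenting cells, was at 6.68 to 9.02 CPM in P5 WT and 7.70 to 10.3 in P11 WT. It was called in Het (0.26 ± 0.11, adjusted p = 0.0473) and not in WT (0.23 ± 0.11, 0.0740), and the Het call was lost under 17 alternatives. Ctse, an aspartic protease of gut and immune cells, was called in WT (0.74 ± 0.31, 0.0495) and not in Het (0.73 ± 0.31, 0.0538). Its WT value was 0.06 (0.876) without the 5 libraries, 0.56 without P11 WT 4 (0.160) and 0.49 without P11 WT 5 (0.210), and the Het value without the 5 libraries was 1.01 (0.00539). Ctsa, a serine carboxypeptidase, differed by 0.02 ± 0.06 in WT and -0.04 ± 0.06 in Het.

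Ctsw and Ctsg mark cells other than those of the tooth. Ctsw, of cytotoxic lymphocytes, was at 0.167 to 0.807 CPM in all libraries and was not called, and the 4 of 6 listed cytotoxic lymphocyte markers present in the table summed to at most 0.552 CPM in any library. Ctsg, of neutrophil granules, had 0 to 7 counts in the P5 libraries and 0, 0, 0, 14 and 3 in P11 WT and 0, 3, 3, 24 and 5 in P11 Het. The neutrophil gene Mpo was at 10.2 CPM in P11 WT 4, 11.6 in P11 Het 4 and 12.7 in P5 Het 4. These libraries had the most Ctsg in P11 WT, P11 Het and P5 Het, and Mpo was at most 8.07 CPM in the other libraries. By the sum of 7 neutrophil markers, P11 WT 5 was at 41.9 CPM with 3 Ctsg counts, against 44.3 in P11 WT 4 and 40.4 in P11 Het 4. In P5 WT, P5 WT 1 had the most Ctsg, at 4 counts, and 16.7 CPM of these markers, where P5 WT 6 had 19.5.

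Because kits of this kind keep no strand, reads of genes that overlap on opposite strands cannot be told apart. On the opposite strand, exons of Ctsl shared 26.8% of their bases with Gm47123, and those of Ctsb 12.8% with Fdft1. Exons of Ctsd shared 34.4% with Gm49369 on the same strand, where knowing the strand would not separate the reads either. For Atp6v0b the share was 11.8% with Gm12841 and for Ctsa 10.5% with Pltp, both on the opposite strand. Values of these genes are uncertain for this reason. These shares are of exon bases and not of reads, so they do not give the size of the uncertainty.

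The second comparison asked whether the Tgfbr2 mutation was accompanied by different levels at either age. At P5, 0 of 35 members passed the edgeR test in either direction, where 0.0651% of all genes were higher and 0.195% lower in Het. At an unadjusted p under 0.05 there were 4 members. The share of all genes under this unadjusted threshold was not counted, here or in the comparisons below, so such counts have no background beside them. DESeq2 called 1 member lower and 0 higher (0.405% and 0.186% of all genes it tested), and limma-voom called 0 (0.191% lower and 0.0837% higher). The estimates were below 0 for 25 members and above 0 for 10, with a median of -0.05. Groups did not overlap for 2 members, both lower in Het, where 0.507% of all genes were lower and 0.344% higher without overlap.

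These 2 were Atp6v1a and Atp6v0a1, the catalytic subunit and the leading a isoform. Atp6v1a was at 99.7, 102, 91.3, 108, 94.2 and 92.8 CPM in P5 WT 1 to 6 and at 82.3, 79.5, 74.5, 76.5, 79.8 and 81.1 in P5 Het 1 to 6. The difference was -0.31 ± 0.08 (adjusted p = 0.0971). It was -0.31 (0.0185) by DESeq2 and -0.34 (0.0184) with the library-name number as a block, a fit that called 2 members lower (0.228% of all genes lower and 0.093% higher). Atp6v0a1 was at 301, 308, 252, 242, 271 and 264 CPM in P5 WT and at 236, 232, 166, 206, 227 and 241 in P5 Het, a difference of -0.32 ± 0.09 (0.197) that became -0.43 (0.0117) with the block. Within number 3, Atp6v0a1 was at 301 and 308 in WT and 232 and 236 in Het, and within number 4 at 242 to 271 in WT and 166 to 206 in Het. Within number 3, Atp6v1a was at 99.7 and 102 in WT and 79.5 and 82.3 in Het, and within number 4 at 91.3 to 108 in WT and 74.5 and 76.5 in Het. Number 5 held Het libraries only. Because no P5 Het library reached a P5 WT library for either gene, WT had to lie above Het within each number. The within-number values are therefore description and add no support.

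**Figure D4:**
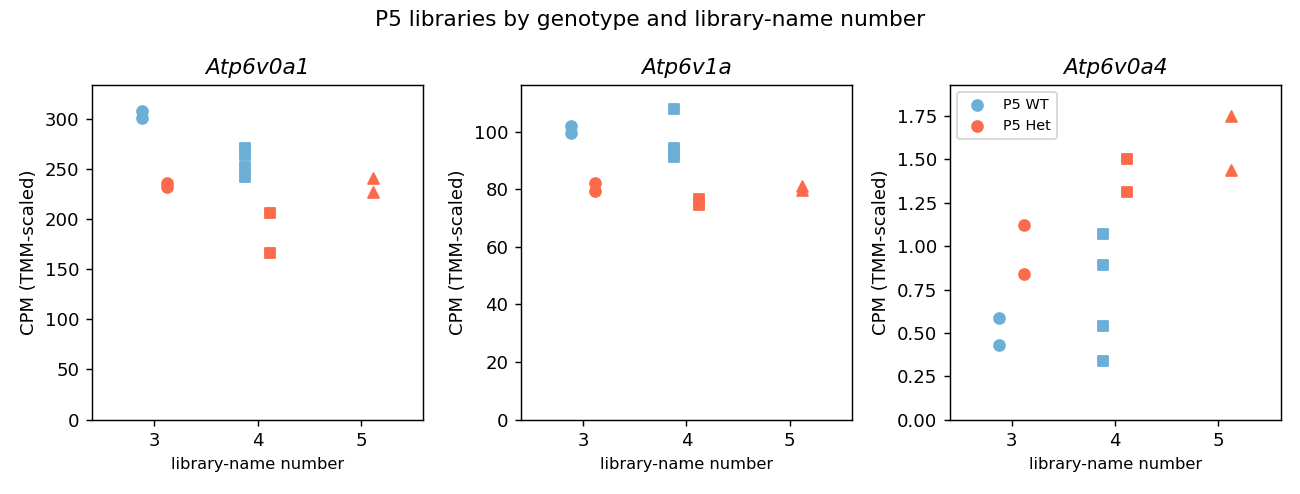
CPM of Atp6v0a1, Atp6v1a and Atp6v0a4 in the 12 P5 libraries, split by the number ahead of the hyphen in the library name. Each point is a library. Atp6v0a1 and Atp6v1a do not overlap between genotypes over the 12 libraries, and so lie lower in Het within numbers 3 and 4. Atp6v0a4 lies higher in Het within both.

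Maturation ameloblast markers moved with these differences at P5. All 5 estimates were below 0, and Klk4, an enamel matrix protease, was called at -0.78 ± 0.16 (adjusted p = 0.0284). Together they summed to 1280 to 2460 CPM in P5 WT and 810 to 1590 in P5 Het. The part of enamel stage in the Atp6v1a and Atp6v0a1 values was not tested. The other members with an unadjusted p under 0.05 were Atp6v1d (-0.23 ± 0.09, adjusted p = 0.640) and Atp6v0e2 (-0.24 ± 0.10, 0.708), both with overlapping groups. Atp6v0a4 had the largest estimate in size, at 1.04 ± 0.56 (0.843), with 0.337 to 1.07 CPM in WT and 0.840 to 1.75 in Het. Cathepsin estimates lay between -0.14 and 0.09, and 0 of 12 had an unadjusted p under 0.05.

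At P11, 0 of 35 members passed the test in either direction and 0 had an unadjusted p under 0.05, where 0.0232% of all genes were higher and 0.00465% lower in Het. DESeq2 also called 0 (0.368% of all genes higher and 0.195% lower), as did limma-voom (0.0232% and 0.0697%). Estimates ran from -1.06 for Atp6v0a4 to 0.16 for Atp6v1d, with a median of 0.00, and 0 members had groups that did not overlap (0.614% of all genes higher and 0.748% lower). Atp6v1a was at -0.09 ± 0.08 and Atp6v0a1 at 0.04 ± 0.10. Atp6v0d2 had a mean of 10.6 ± 0.896 CPM in WT (SD, n = 5) and 8.06 ± 1.34 in Het (n = 5), a difference of -0.39 ± 0.25 (adjusted p = 0.635), and the osteoclast markers had 9 of 10 estimates below 0 and 0 calls.

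The interaction term, which subtracts the genotype difference at P5 from the one at P11, tested whether the differences with age were unequal between genotypes. It was called for 0 of 35 members by edgeR, where 0.0139% of all genes were higher and 0% lower, for 0 by DESeq2 (0.2% and 0.0737% of all genes), and for 0 by limma-voom (0.0139% and 0%). An unadjusted p under 0.05, for which the share of all genes was not counted, was seen for 4 members. They were Atp6v0a4 (-2.10 ± 0.78, adjusted p = 0.425), Atp6v1d (0.39 ± 0.13, 0.405), Atp6v0a1 (0.36 ± 0.13, 0.417) and Ctsf (-0.22 ± 0.10, 0.468). The Atp6v0a4 value was -0.30 (0.908) without the 5 libraries. So genes called in 1 genotype only were not shown to differ between genotypes.

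The third comparison described P11 libraries by the number in their names, 2 against 1, over both genotypes. It called 4 members higher and 1 lower, where 2.26% of all genes were higher and 3.37% lower. Ctsc had the clearest separation. It was at 166, 196 and 187 CPM in WT libraries numbered 1 and 268 and 318 in those numbered 2, and at 168, 154 and 133 against 267 and 263 in Het. The difference was 0.74 ± 0.09 (adjusted p = 5.99e-05), with every number 2 library above every number 1 library, and 0.82 (0.0260) without the 5 libraries. That fit called 1 member higher and 0 lower (0.191% and 0.386% of all genes). It held no WT library numbered 2, so it compared P11 Het 4 and P11 Het 5 with P11 Het 1 and P11 Het 3 only. The genotype estimate for Ctsc at P11 was -0.20 ± 0.18 (0.740).

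Ctsh differed by 0.45 ± 0.11 (adjusted p = 0.0223), with 12.3 to 16 CPM in number 1 libraries and 15.4 to 25 in number 2, and by 0.21 (0.729) without the 5 libraries. That call was also lost without P11 WT 1, 3, 4 or 5 (adjusted p 0.0644 to 0.126). Atp6v0a4 differed by 1.96 ± 0.41 (0.00596) and by 1.75 (0.0690) without the 5 libraries. Atp6v0a2 differed by 0.20 ± 0.05 (0.0223) and was not called without P11 WT 1 or 5, without P11 Het 5, or without the 5 libraries (0.381). Atp6v1a was lower in number 2 by -0.26 ± 0.06 (0.0172), at 281 to 346 CPM in number 1 and 250 to 293 in number 2, and not called without P11 WT 4, without P11 Het 5 or without the 5 libraries (0.199). Values without the 5 libraries again compare Het libraries only, and why those calls were lost was not tested.

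Markers of several cell types moved with the same number. Of 7 neutrophil markers, 5 were higher in number 2 libraries and 0 lower, with sums of 5.04 to 20.5 CPM in number 1 and 16.1 to 44.3 in number 2. Elane, whose product Ctsc activates, was at 0.335 to 2.62 CPM in number 1 and 1.67 to 8.35 in number 2, a difference of 2.50 ± 0.65 (adjusted p = 0.0247). Of the oral keratinocyte markers 2 of 6 were higher, and both WT libraries numbered 2 were rich in them. Macrophage markers were lower for 5 of 12 and higher for 0, namely Adgre1 (-0.52 ± 0.11), C1qa (-0.33 ± 0.10), C1qc (-0.38 ± 0.09), Mrc1 (-0.51 ± 0.11) and Aif1 (-0.54 ± 0.13). Of 4 mast cell markers, the chymase gene Cma1 was higher (0.84 ± 0.19, adjusted p = 0.0121). Of 3 odontoblast markers, Dmp1, a matrix gene also of osteocytes, was higher (0.98 ± 0.09, 3.87e-06). The other 2 had estimates below 0 and were not called. Of 10 osteoclast markers, Nfatc1 was higher (0.32 ± 0.08, 0.0176), while 8 had estimates below 0 and 0 were called lower. Secretory ameloblast markers were lower for 3 of 4 and maturation markers for 1 of 5. The part of these cells in the Ctsc, Ctsh, Atp6v0a4, Atp6v0a2 and Atp6v1a values was not tested.

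**Figure D5:**
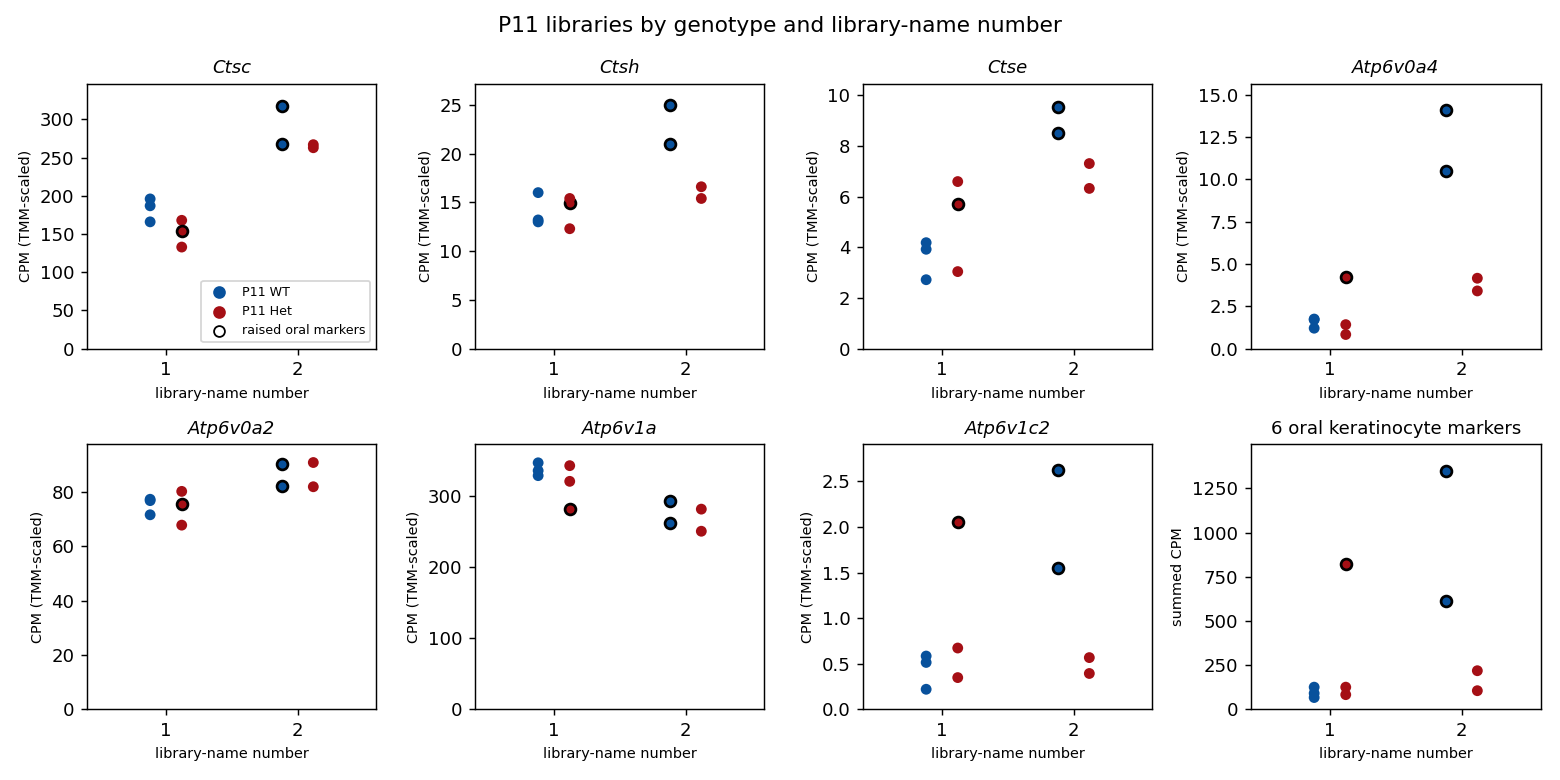
CPM of 7 members and summed CPM of 6 oral keratinocyte markers in the 10 P11 libraries, by the number ahead of the hyphen in the library name. Each point is a library, and black rings mark P11 WT 4, P11 WT 5 and P11 Het 2. Ctsc lies higher in all 4 libraries numbered 2, while Atp6v1c2 follows the ringed libraries.

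Genes that work with the pump and the proteases were counted in 5 lists, against 24.8% of all genes higher and 24.7% lower with age in WT and 24.4% and 23.4% in Het. Of 13 tested genes for V-ATPase assembly and regulation, 4 were higher and 6 lower in WT, and 5 and 5 in Het. Wdr72, needed for endocytosis in maturation ameloblasts and mutated in amelogenesis imperfecta, rose from a median of 9.46 CPM in P5 WT to 80.7, 102, 111, 99.1 and 124 at P11, by 3.47 ± 0.16 (adjusted p = 1.50e-14) in WT and 3.05 ± 0.16 (1.36e-13) in Het. Rogdi, part of the rabconnectin complex that assembles the pump and mutated in a syndrome with enamel defects, changed by -2.01 ± 0.10 (4.21e-14) and -1.74 ± 0.10 (5.21e-13). Dmxl1, a scaffold of that complex, was higher (0.81 ± 0.08 and 0.70 ± 0.08), and the assembly factor Vma21 was lower (-0.63 ± 0.06 and -0.36 ± 0.06). Rogdi and Dmxl1, of the same complex, thus had changes of opposite sign. Dmxl2, on the same list, was lower as Rogdi was, by -0.50 ± 0.09 (adjusted p = 8.61e-05) in WT and -0.60 ± 0.09 (9.27e-06) in Het. Wdr7 was called in neither genotype (0.05 ± 0.07 and -0.15 ± 0.07).

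Of 33 lysosomal hydrolases and activators, 15 were higher and 6 lower in WT, and 15 and 4 in Het, with medians of 0.20 and 0.19. Scpep1, a serine carboxypeptidase, was higher by 1.16 ± 0.07 and 1.14 ± 0.07. Arsb and Galns, sulfatases that degrade dermatan, chondroitin and keratan sulfates, were lower at P11 in WT by -1.88 ± 0.10 and -1.03 ± 0.09. They were also the 2 of 33 called between genotypes at P5, both lower in Het, where 0.195% of all genes were lower and 0.0651% higher. Arsb was at 155 to 189 CPM in P5 WT and 117 to 128 in P5 Het without overlap, a difference of -0.51 ± 0.09 (adjusted p = 0.00728). Galns was at 16.4 to 21.7 and 14.2 to 15.5 CPM, a difference of -0.42 ± 0.08 (0.0166), and its call did not hold without P5 WT 1 or 5, without P5 Het 4 or 6, with the library-name number as a block (0.0559), with the replicate number as a block (0.0553) or without the 5 libraries (0.183). The list had 0 calls at P11.

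Lysosomal membrane genes were higher for 10 of 18 and lower for 2 in WT, and 8 and 2 in Het. Laptm4b (1.21 ± 0.07 in WT), the glucocerebrosidase receptor Scarb2 (0.82 ± 0.07) and the tetraspanin Cd63 (0.67 ± 0.07) were higher, and the cholesterol carrier Npc2 was lower (-0.55 ± 0.05). Of 7 tested cystatins, 3 were higher and 2 lower in WT and 1 and 2 in Het. Cst3, the abundant secreted inhibitor, had a mean of 598 ± 33.7 CPM in P5 WT and 332 ± 46.2 in P11 WT, a change of -0.85 ± 0.08 (adjusted p = 2.73e-09), and Cst6 changed by -2.06 ± 0.48 (0.000915). The cytoplasmic inhibitor Cstb was higher by 1.02 ± 0.08, and Stfa3 by 2.14 ± 0.69 (0.0128), a call lost without P11 WT 4 (1.26, 0.134) or the 5 libraries (0.28, 0.751).

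The MiT/TFE factors, which include TFEB, and the Ragulator and Rag proteins that hold them at the lysosome had 4 of 16 genes higher and 2 lower in WT, and 6 and 1 in Het. Tfeb was higher by 0.24 ± 0.10 in WT (adjusted p = 0.0495), with overlapping groups of 9.16 to 12.3 CPM at P5 and 10.2 to 14 at P11, and by 0.52 ± 0.10 in Het (0.000141), without overlap. Tfe3 was lower by -0.47 ± 0.09 in WT (adjusted p = 0.000129) and -0.38 ± 0.09 in Het (0.00131). Mitf was lower in WT (-0.73 ± 0.28, 0.0367) and not called in Het (0.15 ± 0.28, 0.680). Lamtor3, Lamtor5 and Fnip2 were higher in WT by 0.32 ± 0.07, 0.25 ± 0.07 and 0.39 ± 0.12. Without the 5 libraries, Lamtor5 (0.0548) and Fnip2 (0.104) were no longer called in WT. At P5 and at P11, 0 genes of this list were called between genotypes.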

How the data were processed

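Raw counts per gene for 22 libraries and a table of normalised signal (TMM-scaled CPM) were deposited by the authors. Per the labels' protocols, libraries were made with an unstranded kit and sequenced as 100-base read pairs. Per the submitters' processing notes, STAR 2.7.3a and GRCm38 were used; which tool and annotation gave the counts is not given in the sources used here. Gene symbols were read from the normalised table. Counts were fitted with edgeR 4.0.16 (R 4.3.3; TMM, filterByExpr with a minimum count of 10 and total of 15, quasi-likelihood F test, means of 4 groups, 18 residual degrees of freedom), with Benjamini-Hochberg adjustment over 21510 genes and calls at an adjusted p under 0.05. The SE is the absolute log2 fold change over the square root of F. The comparison by library-name number added that number, nested in age, to the group means of all 22 libraries. Another 18 features that are not mouse genes were left out. Exon lengths and coordinates came from the GENCODE annotation of GRCm38. DESeq2 1.42.0 and limma-voom (limma 3.58.1) were alternatives, and the fit was tested on simulated data.

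The members and lists were chosen with earlier results of these data known. Named genes are the called members of largest change, isoforms with a tissue-restricted paralogue, the main cathepsins and up to 4 genes of smallest p per pathway list. Remaining members, Tcirg1, Tfeb, Mitf, Dmxl2, Wdr7 and the named cell type markers were named after their values were seen.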

Additional observations from a re-analysis of the deposited data

Results flagged for a closer look

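In 5 of 140 combinations of member and group, 1 library stood apart from the others of its group, where chance alone marks about 1 in 20. Atp6v1c2 was at 2.05 CPM in P11 Het 2, against 0.349 to 0.673 in the other P11 Het libraries. Atp6ap1 was at 136 CPM in the same library, against 119 to 123. Ctsb was at 3530 CPM in P11 Het 4, against 3200 to 3280. Atp6v1e1 was at 171 CPM in P11 Het 3, against 148 to 152. Atp6v0b was at 154 CPM in P5 WT 3, against 169 to 173 in the other P5 WT libraries.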

How the results depend on the processing

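With each library of a comparison left out in turn, the members called with age ranged from 23 to 26 higher and 2 to 4 lower in WT, and from 23 to 25 higher and 1 to 2 lower in Het. The WT count of lower members was 2 without P5 WT 1, 5 or 6 or P11 WT 3, and the Het count was 1 without P5 Het 2, 3 or 5 or P11 Het 2 or 5, with no filter on low counts, and without the 5 libraries in which muscle or oral mucosa markers were raised. Between genotypes at P5, 1 member was lower by DESeq2 and 2 with the library-name number as a block, against 0. For that number at P11, the higher members ranged from 2 to 5 and the lower from 0 to 2 when libraries were left out, with 2 higher without P11 WT 1 or 5, 0 lower without P11 WT 4 or P11 Het 5, and 2 lower without P11 Het 2. Without the 5 libraries there were 1 higher and 0 lower, in a comparison that then ran within Het only. Atp6v1c2 turned to -0.94 with age in WT without the 5 libraries. The cause was not tested. The replicate block gave 24 higher and 3 lower members in WT and 24 and 2 in Het, and 0 between genotypes and for the interaction; same-numbered libraries correlated at 0.037 to 0.208 at P5 and -0.134 to 0.106 at P11, and 3 of 11 correlated best with their own number, so the numbers were not taken as pairs. The library-name number could not be fitted as a block between ages. Genes with few counts, such as Atp6v1b1, Ctsg and Atp6ap1l, are limited by depth.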
